A study of Mus musculus with 10 samples.

Results

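Transcripts of blood vessels were followed in ribosome pull-downs from the mouse medial habenula, using 32 genes of endothelium, pericytes and vascular smooth muscle out of 32531 gene rows. The genes were chosen by name as markers of these cells, with earlier results of these data known. A row was found for each of the 32. The 10 libraries came from adult mice of the BAC transgenic line Chat-TRAP (DW167), in which Chat sequences drive the ribosomal protein Rpl10a, fused to EGFP, in cholinergic neurons. There were 5 pull-downs of the left and 5 of the right medial habenula, dissected separately, and all carry the same transgene. The labels give no treatment, and they do not say whether a library is 1 animal or a pool, or that the libraries are from different animals, and p-values here measure the spread between these samples, which may be technical. No unpurified input was analysed here, so enrichment or depletion against the tissue was not measured.

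Brain capillaries are tubes of endothelial cells that are sealed by tight junctions and carry few vesicles, so that nutrients cross by dedicated transporters and many drugs are pumped back into the blood. Pericytes sit on the capillary wall inside a shared basement membrane, and arterioles and venules carry contractile smooth muscle instead. VEGF and angiopoietin signals act on receptor tyrosine kinases of the endothelium, and PDGF-B from the endothelium acts on its receptor on pericytes. The tag is driven in cholinergic neurons, not in vascular cells, and in a bulk pull-down the cell that a transcript came from is not known. Fewer cells of a type and less RNA per cell cannot be told apart either.

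Total gene counts were 42488448 to 67942836 reads per library, so 3 reads correspond to 0.0442 to 0.0706 CPM (reads in a gene scaled to the library's gene reads). Replicates 1 and 5 of both sides held little glial RNA, with summed levels of 8 astrocyte markers of 101 to 106 CPM, against 382 to 1544 CPM in the 6 libraries of replicates 2 to 4. Levels of 8 habenular neuron markers summed to 7957 to 8171 CPM in the former and to 3794 to 6637 CPM in the latter. Replicates 1 and 5 of a side were also close to each other. For genes with 20 to 100 reads, the chi-square of their counts per degree of freedom was 1.58 for the left pair and 1.17 for the right pair, against 4.87 to 23.8 for every other pair of the same side. They differed by more than counting noise and were kept as separate samples, but the 4 libraries may hold only 1 RNA sample per side. This split of the libraries was taken from earlier results of these data, so it is described below and not tested.

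Promoter windows are shown for 3 members that were all higher in replicates 2 to 4, the endothelial receptors Tek and Flt1 and the pericyte gene Rgs5. Each run is the 250 bases before the RefSeq transcript start (GRCm38.p6), 5′ to 3′ on the strand of the gene. The windows are chr4:94739039-94739288, plus strand, chr5:147726012-147726261, minus strand and chr1:169655251-169655500, plus strand. Capitals mark CAGGAA or its reverse complement, a form of the motif bound by ETS factors such as ERG.

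Tek: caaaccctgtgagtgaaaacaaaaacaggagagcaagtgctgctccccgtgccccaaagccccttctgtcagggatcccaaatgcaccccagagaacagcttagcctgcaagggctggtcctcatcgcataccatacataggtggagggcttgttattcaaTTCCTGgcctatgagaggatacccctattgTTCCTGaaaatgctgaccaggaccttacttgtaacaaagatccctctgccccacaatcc

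Flt1: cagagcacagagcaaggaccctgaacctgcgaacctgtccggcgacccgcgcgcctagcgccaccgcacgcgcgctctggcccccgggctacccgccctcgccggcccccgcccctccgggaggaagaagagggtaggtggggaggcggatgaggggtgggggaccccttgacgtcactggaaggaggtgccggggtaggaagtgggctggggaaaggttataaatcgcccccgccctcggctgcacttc

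Rgs5: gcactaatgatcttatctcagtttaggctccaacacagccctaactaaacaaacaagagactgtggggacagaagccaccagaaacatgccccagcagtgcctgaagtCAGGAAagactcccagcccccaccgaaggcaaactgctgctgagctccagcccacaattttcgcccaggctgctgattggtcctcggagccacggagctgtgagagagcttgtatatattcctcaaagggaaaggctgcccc

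The window of Tek held the motif at 2 positions and that of Rgs5 at 1, and neither CAGGAA nor CCGGAA was in the window of Flt1. RefSeq windows were found for 22 members, with 27 starts in all. On either strand, 10 of the 27 windows held CAGGAA or CCGGAA, against 35.1% of 32851 windows of all genes. The share among the members was thus near that of all genes.

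Most vascular genes were far lower in replicates 1 and 5 than in replicates 2 to 4, whatever the side. For 22 of the 32 genes the 6 libraries of replicates 2 to 4 all lay above the 4 libraries of replicates 1 and 5, where 18.5% of the 23890 genes with a read did so. Among genes that passed the filter on low counts these were 21 of 30 members and 24.3% of 16250 genes. The median gene of the 32 had an 8.06-fold higher mean in replicates 2 to 4, against 1.0-fold for the median gene tested. Esam and Egfl7 ran the other way without overlap, which 22.9% of tested genes and 15.8% of genes with a read did. The ranges of Pecam1, Itm2a, Tagln, Vwf, Sox18, Anpep, Higd1b and Slc38a5 overlapped. Summed over the 32 genes, the level was 45.4 to 48.7 CPM in replicates 1 and 5 and 69.9 to 168 CPM in replicates 2 to 4. Slc2a1 alone made up 44.0% to 47.8% of this sum in replicates 1 and 5 and 29.5% to 37.6% in replicates 2 to 4. The sum therefore reflects the less abundant genes only in part. Markers of each cell type were read, and Cldn5, Sox17, Erg and Slc38a5 had no read in at least 1 library. Vascular genes were a small part of every library, at most 0.0168% of gene reads.

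**Figure D1:**
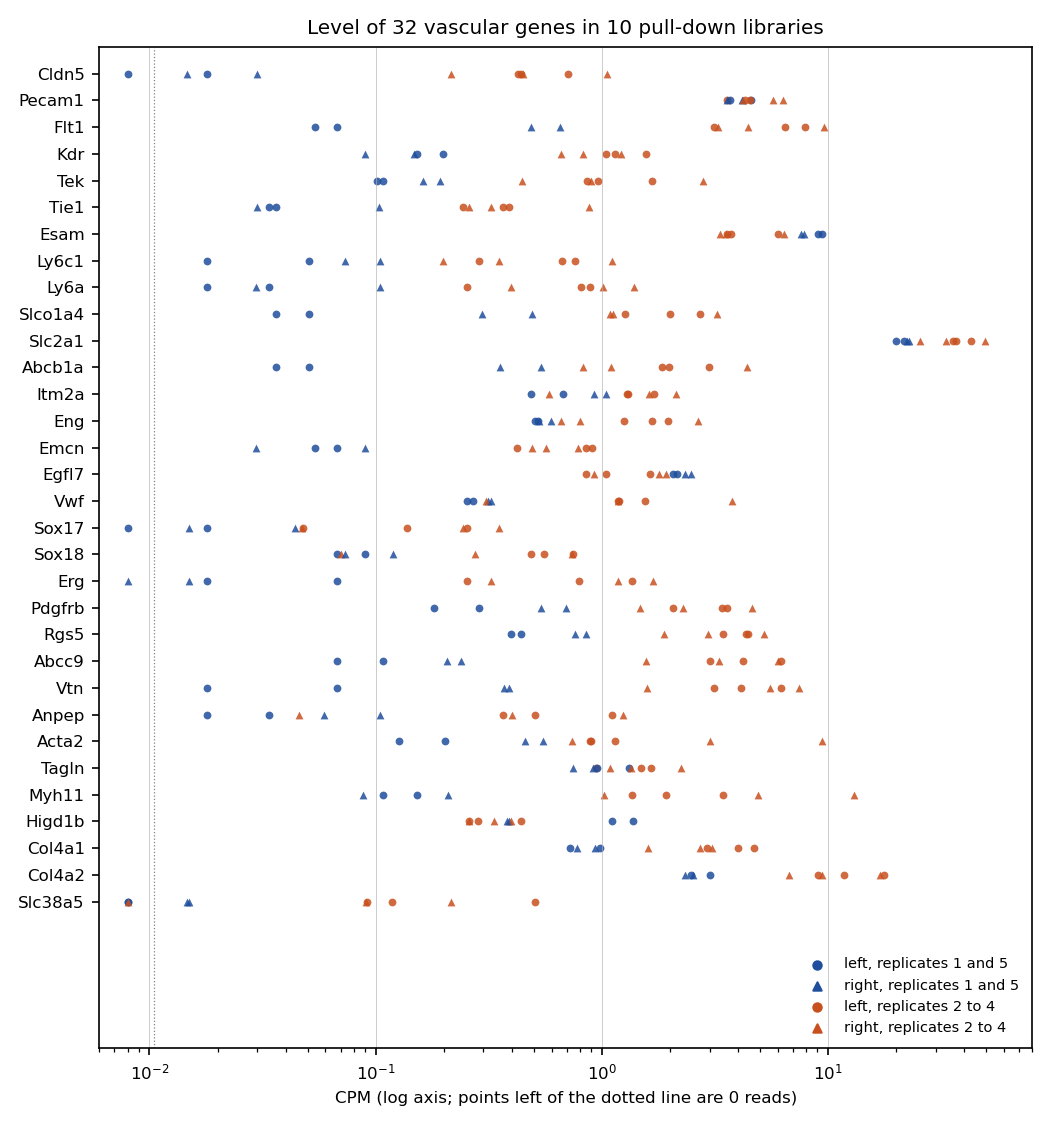
CPM of each of the 32 genes (rows) in each library (points) on a log axis, with circles for the left, triangles for the right, blue for replicates 1 and 5 and orange for replicates 2 to 4. For 22 genes all orange points lie to the right of all blue points, while Esam and Egfl7 show the reverse and Slc2a1 stands far above the rest.

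The 4 endothelial receptor tyrosine kinases were all higher in replicates 2 to 4. Flt1, the VEGF receptor that also acts as a decoy, measured 0.0674, 6.45, 3.13, 7.90 and 0.0541 CPM in left replicates 1 to 5, in that order, and 0.655, 3.28, 9.57, 4.45 and 0.486 CPM in right replicates 1 to 5. It was high in the 6 libraries of replicates 2 to 4 and lowest in left replicates 1 and 5, with 4 and 3 reads there. Kdr, the main signalling receptor for VEGF, ranged over 0.0894 to 0.198 CPM in replicates 1 and 5, against 0.660 to 1.57 CPM in replicates 2 to 4. Tek, the angiopoietin receptor, stood at 0.101 to 0.194 and at 0.445 to 2.80 CPM. Tie1, an orphan relative that pairs with Tek, stood at 0.0298 to 0.103 and at 0.244 to 0.879 CPM. None of the 4 overlapped between these sets of libraries, and their means differed by 18.4-fold for Flt1, 7.33-fold for Kdr, 9.02-fold for Tek and 8.08-fold for Tie1.

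Genes of the blood-brain barrier split into Slc2a1 and the rest. Slc2a1, the glucose transporter GLUT1, was the most abundant vascular gene at 20.1, 35.9, 37.0, 43.2 and 21.7 CPM in left libraries and 22.9, 25.7, 49.6, 33.3 and 22.5 CPM in right libraries. It was higher in replicates 2 to 4 without overlap, but by only 1.72-fold, and made up 29.5% to 47.8% of the reads of the 32 genes. Slco1a4, an organic anion transporter of brain endothelium, measured 0.0506, 2.01, 1.27, 2.73 and 0.0361 CPM in left libraries and 0.492, 1.12, 3.24, 1.08 and 0.294 CPM in right libraries. Abcb1a, the drug efflux pump P-glycoprotein, measured 0.0506, 1.85, 1.99, 2.97 and 0.0361 CPM in left libraries and 0.536, 1.10, 4.38, 0.824 and 0.353 CPM in right libraries. Both were lowest in left replicates 1 and 5, next in right replicates 1 and 5, and highest in right replicate 3. Slc38a5, a glutamine transporter, had at most 32 reads and no read in 3 libraries, and was not tested. Its 65 reads in replicates 2 to 4 against 2 in replicates 1 and 5 gave a ratio of 22.5 (exact counting interval 5.97 to 189), which covers counting error only. Of the 65 reads 32 were in left replicate 2, and without that library the log2 ratio of mean CPM was 3.80 in place of 4.52.

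Junction and surface proteins of the endothelium did not move as 1 group. Cldn5, the main claudin of brain tight junctions, had 4 reads in the 4 libraries of replicates 1 and 5 together and 0.215 to 1.06 CPM in replicates 2 to 4. Emcn, a sialoglycoprotein of capillaries and veins, stood at 0.0294 to 0.0894 and at 0.422 to 0.903 CPM. Ly6c1 and Ly6a, surface proteins of the Ly6 family, stood at 0.0180 to 0.104 CPM each in replicates 1 and 5 and at 0.199 to 1.11 and 0.253 to 1.39 CPM in replicates 2 to 4. These 4 genes did not overlap between the sets. Ly6c1 and Abcb1a have close relatives in the genome, so reads shared with those copies may be missing from the counts. Eng, a co-receptor for TGF-beta family ligands, measured 0.506, 1.25, 1.67, 1.96 and 0.523 CPM in left libraries and 0.596, 0.798, 2.67, 0.659 and 0.530 CPM in right libraries. Its ranges also did not overlap, although right replicate 4 lay just above the highest of replicates 1 and 5.

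Pecam1, the adhesion molecule CD31, hardly varied. It measured 4.59, 4.31, 3.58, 4.52 and 3.70 CPM in left libraries and 4.16, 6.34, 5.71, 4.21 and 3.58 CPM in right libraries, a 1.77-fold range over all libraries. Its mean in replicates 2 to 4 was 1.19 times that in replicates 1 and 5, with overlapping ranges. Itm2a, a membrane protein of endothelium and other cells, measured 0.674, 1.30, 1.30, 1.71 and 0.487 CPM in left libraries and 0.924, 0.583, 2.14, 1.62 and 1.04 CPM in right libraries, with right replicate 2 among the low libraries.

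Esam, an immunoglobulin-like adhesion molecule of endothelial junctions, was higher where the other vascular genes were low. It measured 9.02, 6.05, 3.60, 3.72 and 9.45 CPM in left libraries and 7.58, 6.38, 3.56, 3.34 and 7.82 CPM in right libraries, so that replicates 1 and 5 had a 1.91-fold higher mean. Egfl7, a secreted protein of endothelium, measured 2.16, 1.63, 1.05, 0.853 and 2.07 CPM in left libraries and 2.49, 0.921, 1.79, 1.93 and 2.33 CPM in right libraries, 1.66-fold higher in replicates 1 and 5. Among the habenular neuron markers, Chat, which makes acetylcholine, had a ratio of 0.532 between the mean of replicates 2 to 4 and that of replicates 1 and 5, and Nwd2, the most abundant, one of 0.715. The same ratio was 0.525 for Esam and 0.602 for Egfl7. Of the 8 neuron markers 7 were higher in replicates 1 and 5 without overlap, where 22.9% of all genes tested were. The cells that the Esam and Egfl7 reads came from were not tested. Egfl7 shares 64 exonic bases with Agpat2 on the opposite strand and 264 with Gm20532 on the same strand in GENCODE M21. No source used here gives the strand setting of the counting, so reads of such stretches cannot be assigned with certainty.

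Vwf, the von Willebrand factor of larger vessels, was highest in right replicate 3. It measured 0.253, 1.55, 1.18, 1.19 and 0.271 CPM in left libraries and 0.313, 0.307, 3.79, 1.18 and 0.324 CPM in right libraries. In right replicate 2 it was as low as in replicates 1 and 5, although Flt1 there was 3.28 CPM.

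The endothelial transcription factors had few reads in replicates 1 and 5. Erg, an ETS factor, measured 0.0674, 1.36, 0.253, 0.792 and 0.0180 CPM in left libraries and 0.0149, 0.322, 1.68, 1.18 and 0 CPM in right libraries. It was higher in all of replicates 2 to 4, where it had 335 reads against 6 in replicates 1 and 5. Sox18 ranged over 0.0674 to 0.119 CPM in replicates 1 and 5, against 0.0706 to 0.745 CPM in replicates 2 to 4, overlapping through right replicate 4. Sox17, a factor of arterial endothelium, had at most 23 reads in any library and was not tested. Its levels were 0 to 0.0442 CPM and 0.0471 to 0.353 CPM, and it shares 804 exonic bases with a gene of the opposite strand.

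**Figure D2:**
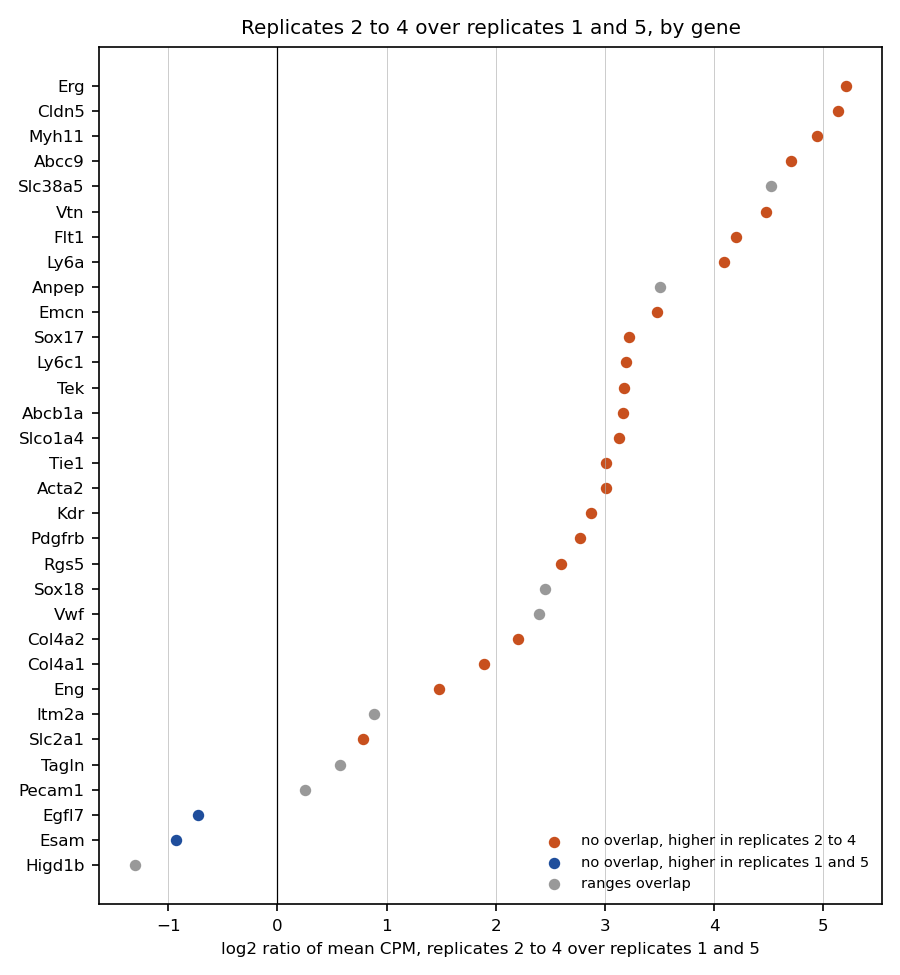
Log2 ratio of mean CPM in replicates 2 to 4 over mean CPM in replicates 1 and 5 for each gene, orange where all of replicates 2 to 4 lie above, blue where all of replicates 1 and 5 lie above, grey where the ranges overlap. Erg, Cldn5 and Myh11 are at the top, and Egfl7, Esam and Higd1b lie below 0.

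Of the 6 pericyte genes, 4 were higher in replicates 2 to 4 without overlap. Vtn, the adhesive protein vitronectin, measured 0.0674, 3.14, 4.12, 6.20 and 0.0180 CPM in left libraries and 0.387, 1.58, 7.44, 5.58 and 0.368 CPM in right libraries, a 412-fold range that starts from a single read in left replicate 5. Abcc9, the sulfonylurea receptor of vascular potassium channels, measured 0.0674, 3.03, 4.21, 6.20 and 0.108 CPM in left libraries and 0.238, 1.57, 6.01, 3.30 and 0.206 CPM in right libraries. Both were low in replicates 1 and 5 of each side and lowest on the left.

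Pdgfrb, the receptor for PDGF-B, measured 0.287, 2.08, 3.40, 3.59 and 0.180 CPM in left libraries and 0.536, 1.47, 4.60, 2.28 and 0.692 CPM in right libraries. Rgs5, a regulator of G protein signalling, measured 0.438, 3.45, 4.33, 4.42 and 0.397 CPM in left libraries and 0.849, 2.95, 5.21, 1.88 and 0.765 CPM in right libraries. Neither overlapped between the sets of libraries, with ratios of 6.85 for Pdgfrb and 6.05 for Rgs5. Anpep, an aminopeptidase, ranged over 0.0180 to 0.104 CPM in replicates 1 and 5, against 0.0460 to 1.24 CPM in replicates 2 to 4, with only 3 reads in right replicate 2.

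Higd1b, a mitochondrial protein used as a pericyte marker, had the lowest ratio between the sets of all 32 genes. It measured 1.11, 0.285, 0.439, 0.259 and 1.37 CPM in left libraries and 0.387, 0.399, 0.333, 0.259 and 0.383 CPM in right libraries. Left replicates 1 and 5 were high, and right replicates 1 and 5 lay within the range of the other libraries.

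The smooth muscle genes Myh11 and Acta2 were by far highest in right replicate 3. Myh11 lies on chromosome 16 from 14194535 to 14291372 and Acta2 on chromosome 19 from 34241090 to 34255590, both on the minus strand (GRCm38, GENCODE M21). Myh11, the smooth muscle myosin heavy chain, measured 0.152, 1.36, 3.45, 1.92 and 0.108 CPM in left libraries and 0.209, 1.03, 13.1, 4.92 and 0.0883 CPM in right libraries. Acta2, smooth muscle actin, measured 0.202, 0.887, 1.15, 0.899 and 0.126 CPM in left libraries and 0.551, 0.737, 9.42, 3.01 and 0.456 CPM in right libraries. Right replicate 3 was 2.66-fold above the next library, right replicate 4, for Myh11 and 3.13-fold for Acta2. Flt1 in right replicate 3 was only 1.21-fold above the next library, left replicate 4. The summed level of the 3 smooth muscle genes per unit of the 4 endothelial receptors was 1.71 in right replicate 3 and 1.40 in right replicate 4, against 0.407 to 0.932 in the other 4 libraries of replicates 2 to 4. In replicates 1 and 5, where the receptors summed to less than 1 CPM, it was 4.71 and 3.0 in left and 1.55 and 1.62 in right libraries. Tagln, the actin-binding protein transgelin, measured 1.32, 1.49, 0.946, 1.64 and 0.956 CPM in left libraries and 0.745, 1.35, 2.24, 1.08 and 0.913 CPM in right libraries, with overlapping sets. In GENCODE M21, 62.4% of the exonic bases of Tagln are shared with Gm48529 on the opposite strand, so its counts are uncertain. Tagln was 1.32 of the 1.67 CPM of the smooth muscle sum in left replicate 1 and 0.956 of 1.19 CPM in left replicate 5. The ratios of 4.71 and 3.0 there thus rest mostly on Tagln.

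**Figure D3:**
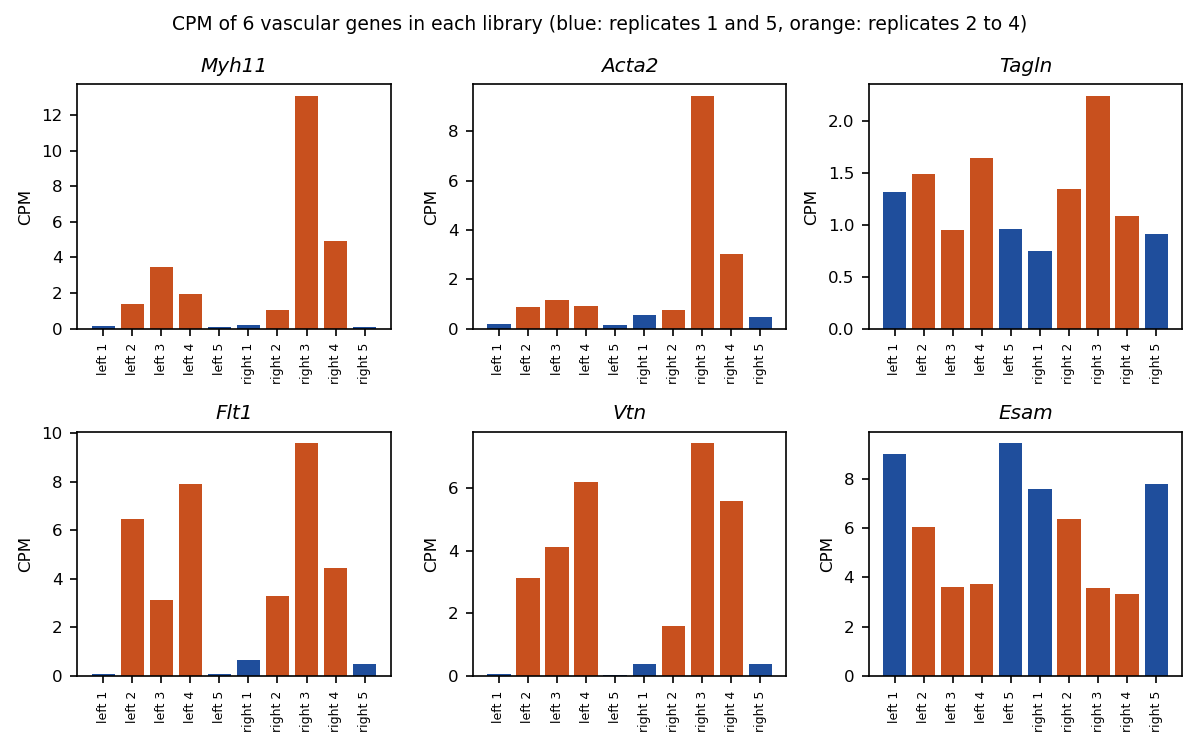
CPM of Myh11, Acta2, Tagln, Flt1, Vtn and Esam in each library as bars from 0, blue for replicates 1 and 5 and orange for replicates 2 to 4. Myh11 and Acta2 peak in right replicate 3 at 13.1 and 9.42 CPM, Flt1 and Vtn are high in all 6 orange libraries, and Esam is highest in the blue ones.

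The basement membrane genes Col4a1 and Col4a2, which encode chains of type IV collagen, went together. Col4a2 measured 3.0, 9.05, 11.7, 17.7 and 2.49 CPM in left libraries and 2.34, 6.77, 17.0, 9.46 and 2.55 CPM in right libraries. Col4a1 measured 0.978, 3.99, 2.92, 4.72 and 0.722 CPM in left libraries and 0.938, 1.60, 3.08, 2.73 and 0.780 CPM in right libraries. Both were highest in left replicate 4 and did not overlap between the sets, with ratios of 4.61 for Col4a2 and 3.71 for Col4a1. The genes lie head to head on chromosome 8 of GRCm38 (mm10), Col4a1 from 11198423 to 11312826 on the minus strand and Col4a2 from 11312805 to 11449287 on the plus strand. Their first exons share 22 bases, and the RefSeq starts are 21 bases apart.

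Per length, the order of the genes differed between the sets of libraries. Levels per kilobase of GENCODE M21 exons, in CPM per kb, were led in replicates 2 to 4 by Slc2a1 at 10.7, Vtn at 2.30, Col4a2 at 1.81, Esam at 1.55 and Acta2 at 1.22. In replicates 1 and 5 the leading genes were Slc2a1 at 6.22, Esam at 2.95, Higd1b at 0.960, Pecam1 at 0.643 and Egfl7 at 0.632. Thus the 5 leading genes of replicates 1 and 5 held none of the smooth muscle genes and, of the pericyte genes, Higd1b only. These ranks are of means over unlike libraries. Higd1b was at 1.11 and 1.37 CPM in left but at 0.387 and 0.383 CPM in right replicates 1 and 5. Acta2 was at 9.42 CPM in right replicate 3 and at most 3.01 CPM in any other library. Flt1, long at 13504 exonic bases, stood at 0.429 CPM per kb in replicates 2 to 4 and at 0.0234 in replicates 1 and 5. These lengths count every annotated exon, so they may exceed the transcripts present.

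The comparison of the sides asked whether vascular transcripts differ between left and right. No vascular gene passed the test. The edgeR quasi-likelihood test called 0 of 30 tested members, with 0% of 16250 genes called in all and an adjusted p of 1.0 for each member. At an unadjusted p under 0.05 there was 1 member, Acta2, where 0.554% of all genes were under it, and DESeq2 also called 0 and gave 1 such member (1.14% of its genes). With the replicate number as a block 0 members were called and 2 were under an unadjusted 0.05, where 1.83% of all genes were. Same-numbered libraries of replicates 2 to 5 also share a sequencing lane number in the labels, while those of replicate 1 do not. With lane as a block in replicates 2 to 5, an alternative chosen after seeing the data, edgeR called 0 of 30 members and 0% of 16517 genes. Again 2 members had an unadjusted p under 0.05, where 0.805% of all genes did. In 18 of the 30 members the log2 fold change (left minus right) was below 0, with a median of -0.07 against -0.01 over all genes tested. No gene of the 32 had sides that did not overlap, which 0.111% of tested genes did with the left above and 0.105% with the right above. The median standard error of the members was 0.88, against 0.24 for all genes tested, in the fit without a block. In simulated counts with the spread of each gene, drawn independently for each library, the test recovered on average 37.4% of 2-fold and 79.8% of 4-fold changes. The changed genes of that simulation had a mean of at least 1 CPM and were not picked as vascular genes. The real libraries fall into sets that resemble each other, which the simulation left out. The median standard error of the members was also larger. For these reasons the shares give the recovery neither for the members nor for these libraries.

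The leading gene of each role showed how wide these intervals were. Esam averaged 6.37 ± 2.80 CPM (SD, n = 5) in left and 5.74 ± 2.16 CPM in right libraries, with a log2 fold change of 0.14 (95% CI -0.65 to 0.93). Slc2a1 stood at 31.6 ± 10.1 and 30.8 ± 11.4 CPM (0.01, -0.64 to 0.65). Pecam1 stood at 4.14 ± 0.469 and 4.80 ± 1.17 CPM and had the narrowest interval (-0.23, -0.63 to 0.16). For these genes a 2-fold difference lay outside the interval. Flt1 stood at 3.52 ± 3.60 and 3.69 ± 3.70 CPM (-0.11, -2.80 to 2.57) and Vtn at 2.71 ± 2.67 and 3.07 ± 3.24 CPM (-0.23, -3.03 to 2.57), so that a 4-fold difference lay inside these intervals. With the replicate number as a block the intervals were narrower, at -0.60 (-1.82 to 0.63) for Flt1 and -0.50 (-1.53 to 0.52) for Vtn, and a 4-fold difference lay outside them. Egfl7 stood at 1.55 ± 0.590 and 1.89 ± 0.612 CPM (-0.31, -1.09 to 0.47), Erg at 0.499 ± 0.572 and 0.639 ± 0.754 CPM (-0.40, -3.39 to 2.58) and Col4a2 at 8.80 ± 6.35 and 7.63 ± 6.05 CPM (0.17, -1.33 to 1.66).

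The largest log2 fold changes were those of Acta2 and Myh11, both toward the right. Acta2 averaged 0.653 ± 0.459 CPM in left and 2.84 ± 3.83 CPM in right libraries (-2.16, 95% CI -4.31 to -0.01), and Myh11 averaged 1.40 ± 1.39 and 3.86 ± 5.51 CPM (-1.51, -4.39 to 1.37). Without right replicate 3 the log2 fold changes were -0.89 and -0.19. With the replicate block they were -1.63 (-2.60 to -0.65) and -0.90 (-1.73 to -0.07), with an adjusted p of 1.0 in edgeR, and with the lane block -1.65 and -0.94. In the other direction Higd1b led with 0.693 ± 0.514 CPM in left and 0.352 ± 0.0579 CPM in right libraries (0.96, -0.16 to 2.08), and with replicates 2 to 4 alone its log2 fold change was -0.04. Summed over the 32 genes, the level was 83.2 ± 36.2 CPM in left and 85.4 ± 49.9 CPM in right libraries.

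**Figure D4:**
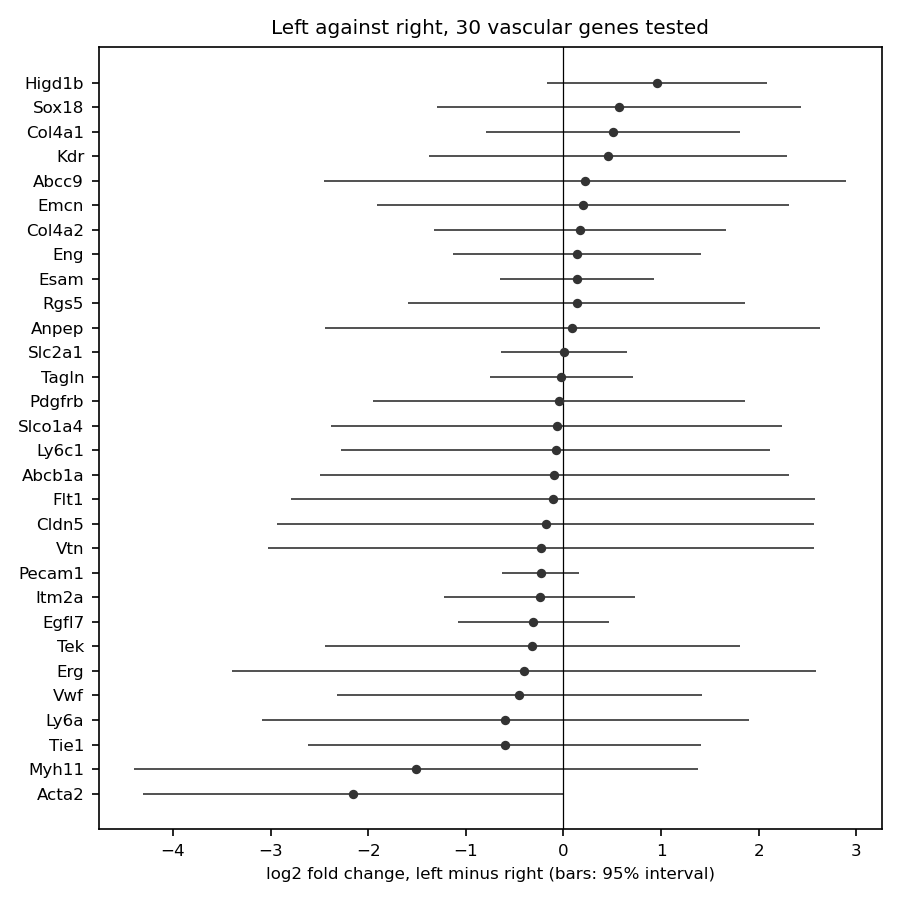
Log2 fold change (left minus right) of the 30 members tested, with 95% intervals from the edgeR fit. The intervals of Slc2a1, Pecam1, Esam and Tagln are narrow and lie around 0, those of Flt1, Vtn and Erg reach past 2 in both directions, and Acta2 lies farthest from 0.

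Left and right libraries of replicates 1 and 5 differed for part of the vascular genes. Replicates 1 and 5 of a side may be 1 RNA sample, so the p-values of this fit may measure technical spread only. In a fit of these 4 libraries alone, edgeR called 8 of 20 members tested, 7 of them higher on the right, where 12.8% of 15569 genes were called (7.06% higher on the right and 5.74% on the left). The 7 were Flt1, Abcb1a, Slco1a4, Vtn, Acta2, Pdgfrb and Rgs5, with adjusted p-values of edgeR between 0.0071 and 0.0284. Mean levels were 9.39-fold higher on the right for Flt1, 9.07-fold for Slco1a4, 10.3-fold for Abcb1a and 8.84-fold for Vtn, from 1 to 4 reads per library on the left. Pdgfrb, Rgs5 and Acta2 were 2.63-fold, 1.93-fold and 3.07-fold higher. Higd1b was called higher on the left, with a log2 fold change of 1.68 (SE 0.22, adjusted p = 0.00834 in edgeR). The other 12 members were not tested there because of low counts. Among them the mean was higher on the right for 9 and lower on the right for 3, which were Kdr, Emcn and Erg, from at most 14 reads per library.

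Lists of other cells differed in this respect. Summed astrocyte markers were 106 and 101 CPM in left replicates 1 and 5 and 106 and 101 CPM in right replicates 1 and 5, and summed oligodendrocyte markers were 97.4 to 108 CPM in all 4. Summed microglia markers were 8.48 and 8.08 CPM on the left against 7.36 and 6.74 CPM on the right, although C1qc, a complement gene of microglia, was at 0.0506 and 0.0180 CPM against 0.343 and 0.162 CPM. Summed fibroblast and meningeal markers were 2.48 and 1.88 CPM on the left against 2.77 and 2.75 CPM on the right. Among them, Igf2 was at 0.438 and 0.505 CPM on the left against 1.30 and 0.883 CPM on the right. Slc6a13 was at 0 and 0.0541 CPM against 0.223 and 0.294 CPM. Others went the other way, with Lum at 0.0674 and 0.0722 CPM against 0.0149 and 0 CPM. Slc47a1 was at 1.18 and 0.812 CPM against 0.566 and 0.721 CPM. Summed choroid plexus and ependyma markers were 3.83 and 3.88 CPM against 5.23 and 4.90 CPM. C1qc, Slc6a13, Lum and Slc47a1 were chosen after their values were seen, and the part of these cells in the difference was not tested. Since replicates 1 and 5 of a side may be 1 RNA sample, this is a difference between those libraries, and a difference between sides cannot be told apart from a difference between RNA samples. In replicates 2 to 4 alone edgeR called 0 of 31 members tested (0% of 16809 genes). An unadjusted p under 0.05 was reached by 1 member, where 0.428% of all genes were under it.

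Other genes of vessels, taken from lists of the same kinds, gave the same picture by side. Of 15 tested ligands, receptors and phosphatases of vascular signalling, 0 passed between the sides in edgeR and 11 were higher in replicates 2 to 4 without overlap, against 24.3% of all genes tested. The most abundant were Vegfb, a VEGF family ligand, averaging 57.6 ± 14.3 CPM (SD, n = 5) in left and 52.8 ± 17.0 CPM in right libraries, and Vegfa, the main VEGF, at 19.2 ± 2.48 and 18.1 ± 2.59 CPM. Vegfa had a ratio of only 1.27 between the sets, while the angiopoietin genes Angpt1 and Angpt2 had ratios of 8.27 and 8.32. Of 18 further endothelial genes tested, 0 passed between the sides and 13 were higher in replicates 2 to 4, beside the same 24.3%. Tjp1, the junction scaffold ZO-1, and Jam2, a junction adhesion molecule, led them with means of 122 and 65.1 CPM, and both are also expressed outside vessels. Cdh5, the endothelial cadherin, chosen after its values were seen, ranged over 0 to 0.250 CPM in replicates 1 and 5, against 0.691 to 2.65 CPM in replicates 2 to 4. Of 17 further mural and basement membrane genes, 0 passed between the sides and 11 were higher in replicates 2 to 4, again beside 24.3%. Lamc1, a laminin chain, and Lamb1, another, led them at means of 17.0 and 7.25 CPM. The lists overlap, since Ptprb is in both the signalling and the endothelial list and Notch3 in both the signalling and the mural list. Both genes were higher in replicates 2 to 4 without overlap, so the counts of these lists are not separate.

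Markers of the cells around vessels moved with the same split of the libraries. All 8 tested astrocyte markers and all 8 oligodendrocyte markers were higher in replicates 2 to 4 without overlap, as were 5 of 8 microglia, 5 of 8 fibroblast and meningeal and 2 of 4 choroid plexus and ependyma markers tested, where 24.3% of all genes tested were. The last of these counts rests on too few genes to be read against that share. The split of the libraries follows their glial RNA. The counts of astrocyte, oligodendrocyte and microglia markers are therefore not independent of the split and cannot be read against that share either. The ranges of the summed fibroblast markers were 1.88 to 2.77 CPM and 5.98 to 18.0 CPM, and those of 4 blood cell genes 0.313 to 0.704 CPM and 1.44 to 2.77 CPM. Within replicates 2 to 4, summed astrocyte markers were 382, 759, 1016, 1439, 1442 and 1544 CPM in right replicate 2, left replicates 2 and 3, right replicates 4 and 3 and left replicate 4. In the same order Vtn was at 1.58, 3.14, 4.12, 5.58, 7.44 and 6.20 CPM and the 6 pericyte genes summed to 8.01, 12.3, 17.0, 13.7, 24.8 and 21.8 CPM, so both were lowest and highest in about the same libraries as the astrocyte markers. Flt1 was at 3.28, 6.45, 3.13, 4.45, 9.57 and 7.90 CPM in that order, lowest in left replicate 3. Abcb1a was at 1.10, 1.85, 1.99, 0.824, 4.38 and 2.97 CPM, lowest in right replicate 4. The part of these other cells in the levels of the vascular genes was not tested.

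**Figure D5:**
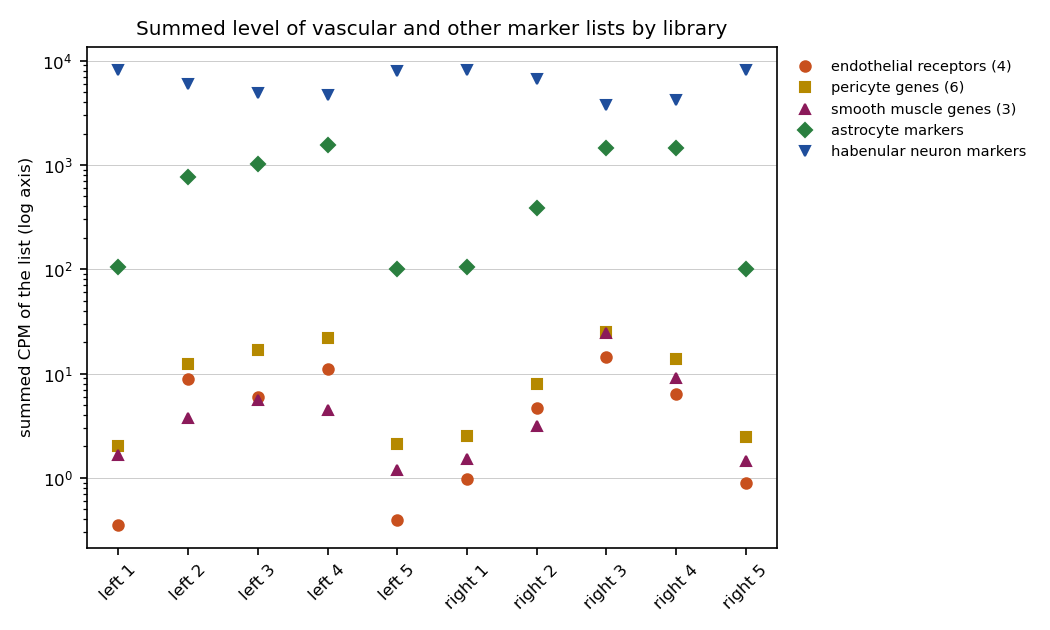
Summed CPM per library, on a log axis, of the 4 endothelial receptors, 6 pericyte genes and 3 smooth muscle genes beside 8 astrocyte and 8 habenular neuron markers. Astrocyte markers are level over replicates 1 and 5 of both sides, the endothelial receptors are higher on the right there, at 0.898 to 0.968 against 0.354 to 0.397 CPM, and the smooth muscle genes peak in right replicate 3 at 24.7 CPM.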

How the data were processed

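The deposited files hold raw counts of reads per gene symbol, 1 file per library, made by the authors with STAR 2.0.0e, HTSeq and the build mm10, per the submitters' processing notes. No source used here gives the annotation or strand setting of the counting. Each file had 32537 rows. The 6 that name no gene (5 summary lines and a row named unknown) were left out. Of uniquely aligned reads 13.6% to 18.9% were assigned to no counted feature and 2.25% to 2.81% were ambiguous. Groups and replicate numbers came from the titles.

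CPM scales each count by the library's sum over gene rows. Sides were compared with edgeR 4.0.16 in R 4.3.3 (TMM, filterByExpr with side as the group and 10 as minimum count, robust quasi-likelihood F test, side as the only term, two-sided, Benjamini-Hochberg over all genes tested, threshold 0.05). Alternatives were RLE size factors, other filters, DESeq2 1.42.0, the replicate number as a block, each library left out, and subsets of replicates. Summing replicates 1 and 5, and lane number as a block in replicates 2 to 5, were added after seeing the data. Ranges between replicates 1 and 5 and replicates 2 to 4 were described without a test. The edgeR step was tested on simulated data drawn independently for each library (5 runs, 16250 genes, 200 changed, 25 false calls in all). The members and lists, and the split of the libraries, were chosen with earlier results of these data known. All members are named, values per library are given where the mean reached 1 CPM and for the leading member of each role, and the 2 most abundant genes of the vascular lists are named. Gene positions and exon lengths are from GENCODE M21 (GRCm38), and windows from RefSeq. Counting intervals cover counting error only.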

Additional observations from a re-analysis of the deposited data

Results flagged for a closer look

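In 64 sets of 5 libraries (32 genes on each side), 8 held a library far from the other 4 by Dixon's criterion, where chance alone gives about 1 in 20 for a single set. The sets share the same libraries and are not independent, and over all genes tested 3.69% of 32500 sets held such a library. In 7 of the 8 it was right replicate 3, which was the outlying and highest library in 25.5% of such sets over all genes. There Tek stood at 2.80 CPM, Ly6c1 at 1.11 CPM, Slco1a4 at 3.24 CPM, Abcb1a at 4.38 CPM, Eng at 2.67 CPM, Vwf at 3.79 CPM and Acta2 at 9.42 CPM, each far above the other right libraries. Right replicate 3 was the highest of all 10 libraries for 20 of the 32 genes, and for 14.3% of all genes tested. On the left, Slc38a5 was far higher in left replicate 2, at 0.507 CPM, which is 32 reads.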

How the results depend on the processing

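No setting of the fits over all replicates called a gene between the sides, with 0 called by edgeR and DESeq2, and leaving out a library gave 50 to 149 genes at an unadjusted p under 0.05 against 90. Replicates 1 and 5 only gave 1992 genes called and 8 members called, and summing replicates 1 and 5 of a side, added after seeing the data, gave 0 called and 23 at an unadjusted p under 0.05. With the replicate number as a block, 0 genes were called and 297 had an unadjusted p under 0.05. Deviations of same-numbered libraries correlated by 0.0962 (replicate 2) to 0.873, and 6 of 10 libraries correlated best with their own number. Since replicate 2 was under 0.1 and replicate 1 shares no lane number across sides, the numbers were not taken as pairs, although replicates 2 to 5 share one. A lane block in replicates 2 to 5, added after seeing the data, gave 0 genes called and 133 at an unadjusted p under 0.05. Log2 fold changes with replicates 1 and 5 only turned to 0.10 for Pecam1 and -0.12 for Slc2a1, and with replicates 2 to 4 only to -0.010 for Esam and -0.035 for Higd1b. Leaving out 1 library at a time moved them over -0.060 to 0.30 for Esam, -0.64 to 0.64 for Flt1, -0.13 to 0.26 for Slc2a1, -1.21 to 0.38 for Erg, -0.78 to 0.42 for Vtn, -0.25 to 0.71 for Col4a2, in each case across 0. The cause was not tested. The count of 22 genes higher in replicates 2 to 4 was 25 without right replicate 2 and 24 without right replicate 4. Levels under about 0.1 CPM rest on a few reads, which limits the ratios of Cldn5, Erg, Sox17 and Slc38a5.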
